A study of Mus musculus with 6 samples.

Results

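The phagocyte NADPH oxidase was followed through 4 genes of its complex, Cybb, Cyba, Ncf1 and Ncf4, with Nox4, an oxidase of fibroblasts, as the contrast. The 5 genes were chosen by symbol from a table of 26323 Ensembl genes, and all 5 were measured with 1 row each. In all, 3 groups of wild-type mouse cells were profiled on Mouse Exon 1.0 ST arrays, with 2 arrays per group called biological replicates by the study. Untreated mouse embryonic fibroblasts (MEFs) had received no factor. CDH5+ cells were sorted on day 8 after lentiviral transduction of fibroblasts with ERG, GATA2, LMO2, RUNX1c and SCL, and c-KIT+ cells on day 12. The study depleted its MEFs of cells carrying CD41, CD31, c-KIT or CD45 before infection and grew transduced cells with cytokines that act on blood cells, GM-CSF and M-CSF among them. Each sorted group differs from the others in day and in sort marker at once, so day and marker cannot be told apart.

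The phagocyte oxidase moves electrons from NADPH across a membrane to oxygen and so makes superoxide, the first product of the respiratory burst with which neutrophils, eosinophils and macrophages kill microbes. Its membrane core is a heterodimer of the catalytic subunit gp91phox (NOX2, gene Cybb) and p22phox (Cyba). In resting cells cytosolic subunits, the organizer p47phox (Ncf1) and p40phox (Ncf4) among them, wait apart, and upon a signal they join the core together with the GTPase RAC2. Loss of a phox subunit causes chronic granulomatous disease in humans. NOX4 needs p22phox but no cytosolic subunit and makes mainly hydrogen peroxide. It is expressed in fibroblasts, kidney and vessel wall.

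The values are normalized log2 intensities, 1 per gene and array. The 5 gene values average 8 to 32 probe sets, which are short probe groups for single exons, so a level is comparable across arrays for 1 gene and not between genes. As a measure of background, the 95th percentile of 884 olfactory receptor genes, which these cells are not known to use, lay between 5.90 and 6.04 on the 6 arrays, and a level under it was read as not above background. Each gene was fitted with limma over all 6 arrays with a mean per group, and p-values were adjusted over all 26323 genes by the Benjamini-Hochberg method. A difference of 1 on the log2 scale is a doubling. The number of arrays limits the precision, since a group has 2. The pairs of untreated and of CDH5+ arrays stood apart in their fibroblast markers, all 10 of which were lower on replicate 2 than on replicate 1, with a mean level over the list of 8.90 against 10.64 in untreated MEFs and 7.17 against 9.41 in CDH5+ cells. Single blood cell genes differed within the untreated pair too, with Cd53 at 6.00 and 3.87 and Lyz2 at 7.61 and 5.18 on replicates 1 and 2. What these differences come from was not tested. Of the 5 pan-leukocyte markers 1, Coro1a, was higher on untreated replicate 2 (4.29 and 5.03), and their median change was -0.10. Of the 10 monocyte and macrophage markers 3 were higher there, with a median change of -0.15. Of the 10 neutrophil lineage markers 4 were higher, with a median of -0.05, against 0.05 over all genes. Differences between groups are therefore also given without single arrays.

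Promoter sequence from RefSeq (build GRCm38.p6) was held for 4 of the 5 genes, and Ncf4 was not among them. The 250 bases before the annotated start are shown for Cybb, the catalytic core of the phagocyte oxidase, for Cyba, which serves both oxidases, and for Nox4, the contrast. Capitals mark matches on either strand to GATAA (GATA factors), TGTGGT (RUNX factors), GAGGAA (PU.1, the product of Spi1) and CCAAT (the CCAAT box).
Cybb, chrX:9469325-9469574, minus strand: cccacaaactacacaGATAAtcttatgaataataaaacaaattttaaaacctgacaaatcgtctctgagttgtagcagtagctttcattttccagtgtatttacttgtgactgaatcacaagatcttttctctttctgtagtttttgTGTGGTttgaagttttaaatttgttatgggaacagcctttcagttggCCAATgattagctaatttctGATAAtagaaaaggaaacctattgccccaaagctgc
Cyba, chr8:122432941-122433190, minus strand: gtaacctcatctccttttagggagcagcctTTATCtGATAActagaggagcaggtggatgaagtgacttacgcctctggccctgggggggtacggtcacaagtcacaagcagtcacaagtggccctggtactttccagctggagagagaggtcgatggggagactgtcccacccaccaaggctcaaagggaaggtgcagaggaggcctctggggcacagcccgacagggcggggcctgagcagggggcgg
Nox4, chr7:87246399-87246648, plus strand: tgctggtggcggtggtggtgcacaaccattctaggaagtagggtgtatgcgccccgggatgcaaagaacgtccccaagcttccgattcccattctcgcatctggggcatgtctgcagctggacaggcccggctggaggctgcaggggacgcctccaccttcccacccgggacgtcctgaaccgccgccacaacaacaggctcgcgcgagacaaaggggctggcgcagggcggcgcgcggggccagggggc
The Cybb window held GATAA 235 and 36 bases before the start, TGTGGT at 103 and CCAAT at 56. The letters of the PU.1 motif, read on the other strand as TTCCTC, began at base 10 after its start, in this stretch of 24 bases, shown because Spi1 was among the factors measured.
Cybb, chrX:9469301-9469324, minus strand: tgttttcatTTCCTCatcagaaga
The Cyba window held 2 GATAA matches, and the windows of Nox4 and Ncf1 held none of the 4 motifs. Of 32851 promoters of the same length, 22.6% held GATAA in the 250 bases before the start, 14.0% TGTGGT, 23.3% GAGGAA and 33.8% CCAAT, and with the 50 bases after the start included 28.3% held GAGGAA. These matches describe letters only, and none of the motifs overlaps another.

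Cybb, the catalytic core of the phagocyte oxidase, was not above background in untreated MEFs and was above it on both c-KIT+ arrays and on 1 of the 2 CDH5+ arrays. Its level (ENSMUSG00000015340) was 3.58 and 3.43 on the untreated arrays, 5.46 and 6.37 on the CDH5+ arrays and 7.18 and 6.93 on the c-KIT+ arrays. All 4 arrays of sorted cells lay above both untreated arrays. That held for 18.1% of all genes with the CDH5+ pair and for 28.6% with the c-KIT+ pair. For Cybb both c-KIT+ arrays also lay above both CDH5+ arrays. Over untreated MEFs its c-KIT+ mean was higher by 3.55 in log2 units (standard error, SE, 0.33; limma adjusted p = 0.00539), at least 2.21-fold when the untreated level is set to the background. In CDH5+ cells the measured difference was 2.41 (SE 0.33, limma adjusted p = 0.0400), but the CDH5+ mean of 5.92 was itself not above background, so no fold is given. Between the sorted groups Cybb differed by 1.14 (SE 0.33, limma adjusted p = 0.238), which did not pass after adjustment over all genes. That its c-KIT+ arrays lay above its CDH5+ arrays carries little weight, since 36.6% of all genes did so. Without single arrays the difference between the sorted groups ran from 0.69 to 1.59. The arrays measure RNA of a whole sorted population, in which more cells of a type and more RNA per cell cannot be told apart. Each call rests on few arrays. Without c-KIT+ replicate 1 or 2 the c-KIT+ difference was 3.43 or 3.68 at a limma adjusted p of 0.0688 or 0.0600, and the CDH5+ call was lost with any array left out except CDH5+ replicate 1, at adjusted p-values from 0.0897 to 0.133, and also under other scalings of the arrays.

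**Figure D1:**
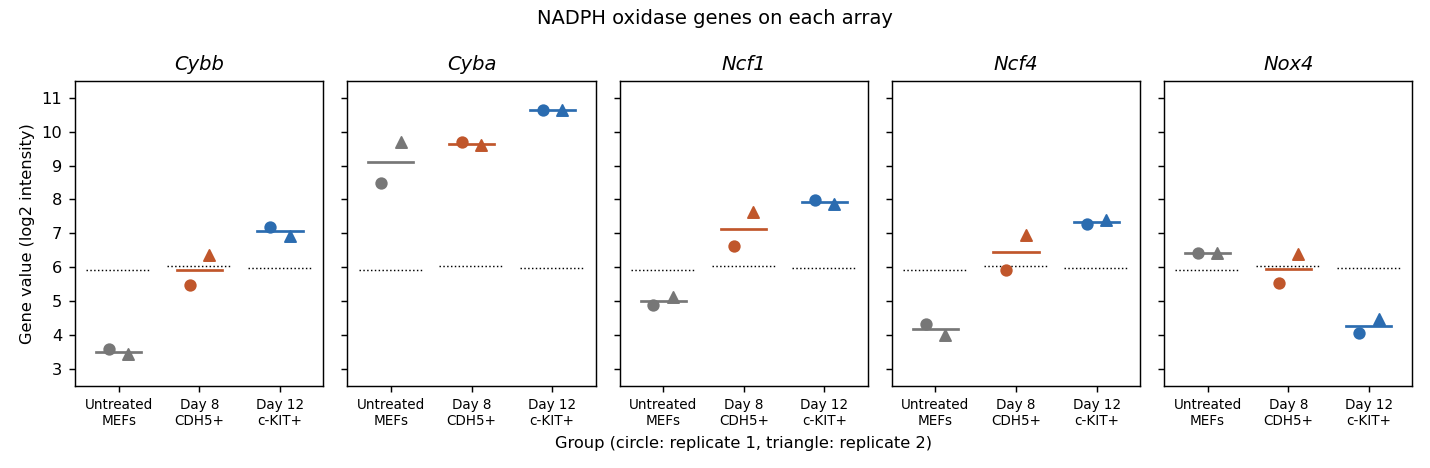
Gene value in log2 intensity (vertical axis) of the 5 oxidase genes on the 6 arrays, grouped as untreated MEFs, CDH5+ cells of day 8 and c-KIT+ cells of day 12 (circle, replicate 1; triangle, replicate 2; solid line, group mean of 2 arrays; dotted line, mean over the group's arrays of the 95th percentile of olfactory receptor genes). Cybb, Ncf1 and Ncf4 start under the dotted line and lie above it on both c-KIT+ arrays, Cyba is above it on all 6, and Nox4 drops under it to 4.06 and 4.46 in c-KIT+ cells.

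The cytosolic subunits Ncf1 and Ncf4 followed the same course as Cybb. Ncf1, the organizer p47phox (ENSMUSG00000015950), measured 4.89 and 5.11 in untreated MEFs, 6.64 and 7.62 in CDH5+ cells and 7.99 and 7.86 in c-KIT+ cells. Ncf4, which encodes p40phox and binds a membrane lipid of the phagosome (ENSMUSG00000071715), measured 4.32 and 3.99, then 5.93 and 6.96, then 7.27 and 7.39. For both genes the untreated arrays were not above background, nor was CDH5+ replicate 1 for Ncf4. The 3 groups did not overlap on any array, which carries little weight by itself. Against untreated arrays, 28.6% of all genes lay higher without overlap on the c-KIT+ pair and 18.1% on the CDH5+ pair. For the c-KIT+ pair against the CDH5+ pair the share was 36.6%. Ncf1 rose by 2.93 (SE 0.35, limma adjusted p = 0.0113) and Ncf4 by 3.17 (SE 0.37, limma adjusted p = 0.0107) from untreated MEFs to c-KIT+ cells, at least 4.04-fold and 2.67-fold over the background. In CDH5+ cells the differences of 2.13 for Ncf1 and 2.29 for Ncf4 did not pass the test (limma adjusted p = 0.0660 and 0.0652). Without either c-KIT+ array the calls in c-KIT+ cells were lost, at limma adjusted p-values of 0.114 and 0.104 for Ncf1 and 0.0996 and 0.107 for Ncf4, and without CDH5+ replicate 1 both CDH5+ differences passed, at 0.0371 and 0.0370, as they did with dim genes left out of the table, at 0.0350 and 0.0346. The pass with dim genes left out gives no support. That filter used the mean over all 6 arrays, which both genes reached only through the sorted groups. Between the sorted groups Ncf1 differed by 0.79 and Ncf4 by 0.88 (limma adjusted p = 0.342 and 0.324), with ranges from 0.30 to 1.28 and from 0.36 to 1.40 when 1 array was left out.

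Cyba, the partner that NOX2 and NOX4 share, was above background in every group, fibroblasts included. Its level (ENSMUSG00000006519) was 8.50 and 9.70 in untreated MEFs, 9.71 and 9.60 in CDH5+ cells and 10.63 and 10.64 in c-KIT+ cells. The c-KIT+ arrays were the highest. Their pair lay higher without overlap for 28.6% of all genes against untreated arrays and for 36.6% against CDH5+ arrays. For Cyba untreated replicate 2 lay between the CDH5+ arrays. The difference of c-KIT+ cells from untreated MEFs was 1.53 (SE 0.40, limma adjusted p = 0.0923), and that of CDH5+ cells was 0.56 (SE 0.40, limma adjusted p = 0.577). Untreated MEFs were the pair that spread most, by 1.20 between replicates against 0.11 and 0.02 in CDH5+ and c-KIT+ cells. With untreated replicate 2 left out, the c-KIT+ difference was 2.13 and passed the test (limma adjusted p = 0.0116), and with untreated replicate 1 left out the CDH5+ difference turned to -0.04 (limma adjusted p = 0.926).

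Nox4 ran the other way. Its level (ENSMUSG00000030562) was 6.41 on both untreated arrays, 5.54 and 6.38 in CDH5+ cells and 4.06 and 4.46 in c-KIT+ cells. Both c-KIT+ arrays lay under all others and were no longer above background, while CDH5+ replicate 2 lay within 0.03 of the untreated level. The c-KIT+ pair lay lower without overlap for 22.9% of all genes against untreated arrays and for 18.7% against CDH5+ arrays. From untreated MEFs to c-KIT+ cells Nox4 fell by 2.15 in log2 units (SE 0.33, limma adjusted p = 0.0225), at least 1.34-fold when the c-KIT+ level is set to the background. The CDH5+ difference was -0.45 (SE 0.33, limma adjusted p = 0.577), and c-KIT+ cells differed from CDH5+ cells by -1.70 (limma adjusted p = 0.172). The call in c-KIT+ cells was lost without c-KIT+ replicate 1 (limma adjusted p = 0.177), c-KIT+ replicate 2 (0.129) or untreated replicate 1 (0.0739), with differences from -2.35 to -1.96 in these fits.

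Read against the whole table, 3 of the 5 genes were called higher and 1 lower when c-KIT+ cells were compared with untreated MEFs, where limma called 3.24% of the 26323 genes higher and 2.72% lower. In CDH5+ cells 1 of the 5, Cybb, was called higher, against 0.965% of all genes, and 0 were called lower, against 0.213%. By the moderated F-test of limma over the 3 groups 4 of the 5 passed, against 3.30% of all genes, with adjusted p-values of 0.0136 for Cybb, 0.0260 for Ncf1, 0.0249 for Ncf4 and 0.0483 for Nox4, and 0.176 for Cyba. Those 4 calls were not firm to the loss of 1 array: each was lost without either c-KIT+ array, where limma called 89 or 86 genes in all, and without untreated replicate 1, at adjusted p-values from 0.0546 for Cybb to 0.0868 for Nox4. Without untreated replicate 2 the call was lost for Ncf1 (limma adjusted p = 0.0575), Ncf4 (0.0620) and Nox4 (0.0705), and for Nox4 also without CDH5+ replicate 2 (0.0509) and with the arrays centred on their medians (0.0529). With c-KIT+ set against CDH5+ cells, 0 of all genes (0%) passed limma at an adjusted p under 0.05 in either direction. Without adjustment 2944 genes were higher in c-KIT+ cells (11.2%), Cybb among the members, and 1261 were lower (4.79%), Nox4 among the members. Arrays of the groups did not overlap for all 5 genes in the comparison of c-KIT+ cells with untreated MEFs, 4 of them higher, as for 28.6% of all genes, and 1 lower, as for 22.9%. For CDH5+ cells against untreated MEFs 3 lay higher without overlap (18.1% of all genes), 1 lower (25.2%) and 1, Cyba, overlapped, and for c-KIT+ against CDH5+ cells 4 lay higher (36.6%) and 1 lower (18.7%).

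Of the log2 difference between untreated MEFs and c-KIT+ cells, CDH5+ cells showed 72.9% for Ncf1, 72.1% for Ncf4, 67.9% for Cybb, 36.2% for Cyba and 21.1% for Nox4. These shares are a description with no test, and 1 end of the difference was not above background for each gene but Cyba. With 1 array left out they ran from 56.2% to 89.6% for Ncf1, 55.7% to 88.5% for Ncf4 and 55.2% to 80.7% for Cybb, the lower value without CDH5+ replicate 2 and the higher without CDH5+ replicate 1. The share of Nox4 was 1.71% without CDH5+ replicate 1 and 40.5% without CDH5+ replicate 2, and that of Cyba was -4.79% without untreated replicate 1 and 54.2% without untreated replicate 2. Across the 6 arrays Cybb, Ncf1 and Ncf4 kept close to each other. Once each gene was centred on its own mean, Cybb differed from Ncf4 by a root mean square of 0.203 on the log2 scale and from Ncf1 by 0.281, and Ncf1 from Ncf4 by 0.206. Cyba stood at 1.04 from Cybb and Nox4 at 2.34.

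By the same measure over the 6 arrays, the 4 genes most like Cybb among all others were Itgal, the integrin chain of LFA-1 (0.051), Igsf6, an immunoglobulin superfamily membrane protein (0.114), the antisense gene Gm16104 (0.156) and Dock8, an exchange factor for CDC42 (0.161). Itgal rose from 4.54 and 4.43 in untreated MEFs through 6.48 and 7.24 to 8.14 and 7.94. Nearest to Ncf1 were the metalloprotease gene Adam8 (0.100), F10, which encodes coagulation factor X (0.109), Acap1 (0.117) and Pik3cg (0.129), the catalytic subunit of the lipid kinase that couples chemoattractant receptors to the oxidase. Nearest to Ncf4 were Prkch, a protein kinase C (0.123), Ltb4r1, the leukotriene B4 receptor (0.148), Adam8 (0.151) and the sphingosine phosphate transporter Spns2 (0.154). Cyba had Dpy30 (0.111), Sap30 (0.119), Fam65b (0.122) and Arhgdib (0.122) beside it, and all 4 of these were higher on untreated replicate 2 than on replicate 1. Near Nox4 were Mcam, an adhesion molecule of vessel wall cells (0.230), the formin Fmn1 (0.237) and 4930546H06Rik (0.238).

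At the level of exons the genes that rose did so along most of their probe sets. The annotation gives Cybb 16 probe sets, of which 15 were higher on both c-KIT+ arrays than on both untreated arrays, as were 20.7% of all probe sets, and limma called 13 of them higher after adjustment over 1236087 probe sets, where it called 0.417% higher in all. For Ncf1 14 of 15 lay higher without overlap and 9 were called, and for Ncf4 11 of 12 and 8. Probe sets of a gene come from the same arrays as its gene value and do not count as further replicates. The Cybb exception, probe set 5544844, chosen after its values were seen, read 6.42 and 7.25 in untreated MEFs, 6.89 and 6.99 in CDH5+ cells and 5.59 and 5.14 in c-KIT+ cells, a difference of -1.47 (limma adjusted p = 0.277). At the other end, Cybb probe set 4676253 went from 1.95 and 1.20 to 7.53 and 7.86, a difference of 6.12 (limma adjusted p = 0.00588). In CDH5+ cells 14 of the 16 Cybb probe sets, 13 of 15 for Ncf1 and 10 of 12 for Ncf4 lay above both untreated arrays, as did 18.8% of all probe sets, but limma called 1, 0 and 3 of them, against 0.136% of all probe sets.

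Cyba had 12 annotated probe sets, and its deposited gene value equals the mean of exactly 8 of them, to within 0.0002 on every array. Those 8 all lay higher on the c-KIT+ than on the untreated arrays, by 0.86 to 2.04, while the 4 that the gene value leaves out had differences from -1.53 to -0.20 and levels of 5.41 or less. Limma called 0 of the 12 in either comparison with untreated MEFs. Nox4 had 34 annotated probe sets, 28 of them lower in c-KIT+ cells without overlap (19.4% of all probe sets) and 11 called lower by limma, against 0.359% of all probe sets. In CDH5+ cells 16 of the 34 lay lower without overlap (18.1% of all probe sets) and 0 were called lower, against 0.0133%. The largest fall was at probe set 5137955, from 8.19 and 8.15 to 3.37 and 3.78, with 7.33 and 8.54 in CDH5+ cells. The 5 Nox4 probe sets with a higher mean in c-KIT+ cells had untreated levels of 3.59 or less, and 0 of them passed the test.

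**Figure D2:**
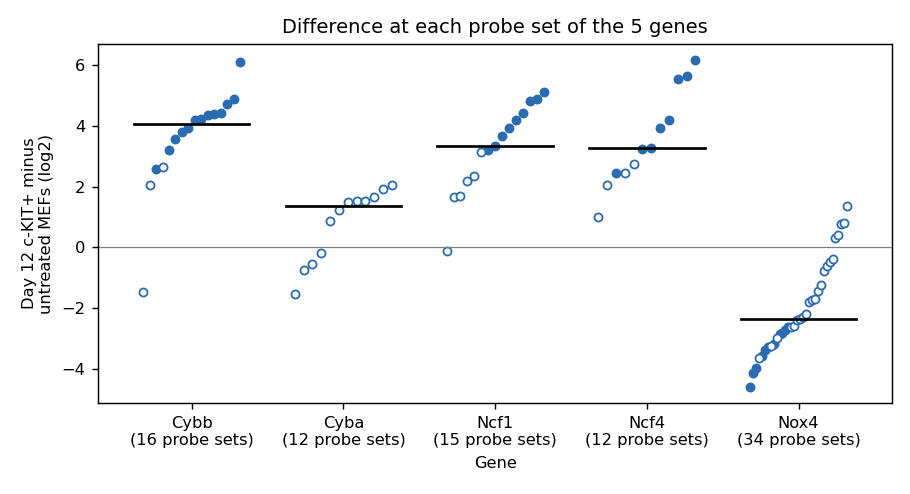
Difference in log2 intensity between c-KIT+ cells of day 12 and untreated MEFs (vertical axis, means of 2 arrays each) at every probe set annotated to 1 of the 5 genes, sorted within each gene (filled, limma adjusted p under 0.05 over all probe sets; open, not; black line, median over the gene). The medians are 4.07 for Cybb, 1.36 for Cyba, 3.34 for Ncf1, 3.26 for Ncf4 and -2.38 for Nox4.

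The rest of the phagocyte complex was read from a list of 6 genes, of which 5 were measured and Cybc1, a chaperone gene of the cytochrome, was not matched to the file. Rac2, the GTPase that completes the oxidase in neutrophils, measured 4.98 and 5.13 in untreated MEFs, 7.23 and 8.13 in CDH5+ cells and 9.31 and 9.20 in c-KIT+ cells. It passed the test in both groups, higher by 2.62 (limma adjusted p = 0.0281) and by 4.20 (limma adjusted p = 0.00310). Its untreated levels were not above background, so these sizes are uncertain. Its relative Rac1, which most cells use, read between 7.94 and 8.57 on all 6 arrays, with a c-KIT+ difference of -0.46 (limma adjusted p = 0.264). Hvcn1, the proton channel that balances the charge the oxidase moves, rose by 1.00 in c-KIT+ cells (limma adjusted p = 0.0459). Its untreated levels of 5.20 and 4.97 were not above background. The c-KIT+ levels of 6.12 and 6.05 lay only just above the background of 6.00 and 5.98 on those arrays, so no fold is given. Rap1a, a GTPase that copurifies with the cytochrome, and Arhgdib, a chaperone of small GTPases in blood cells, had c-KIT+ differences of 0.66 and 1.36 (limma adjusted p = 0.172 and 0.113). Over these 5 genes the median difference in c-KIT+ cells was 1.00, against 0.05 over all genes.

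Of the other NADPH oxidases and their partners, 0 of 11 were called higher in either sorted group and 2 were called lower in c-KIT+ cells. Of all genes 0.965% were called higher in CDH5+ and 3.24% in c-KIT+ cells, and 2.72% were called lower in the latter. Nox1, Nox3, Duox1 and Duox2, the remaining catalytic subunits of the family in the mouse, stayed between 3.78 and 4.94 on all 6 arrays, not above background. The same held for Noxa1 and Noxo1, activator and organizer of NOX1, and for the maturation factors Duoxa1 and Duoxa2, which read between 4.07 and 5.95. The 2 genes that fell were Sh3pxd2a and Sh3pxd2b, which encode the podosome scaffolds TKS5 and TKS4, relatives of p47phox. Sh3pxd2a went from 7.55 and 7.62 in untreated MEFs through 7.05 and 6.80 to 6.36 and 6.23, a difference of -1.29 in c-KIT+ cells (limma adjusted p = 0.0242), and Sh3pxd2b had a difference of -1.33 (limma adjusted p = 0.0244). Poldip2, a partner of NOX4 in vascular smooth muscle, differed by -0.13 in c-KIT+ cells (limma adjusted p = 0.797). The median over the 11 was -0.09.

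**Figure D3:**
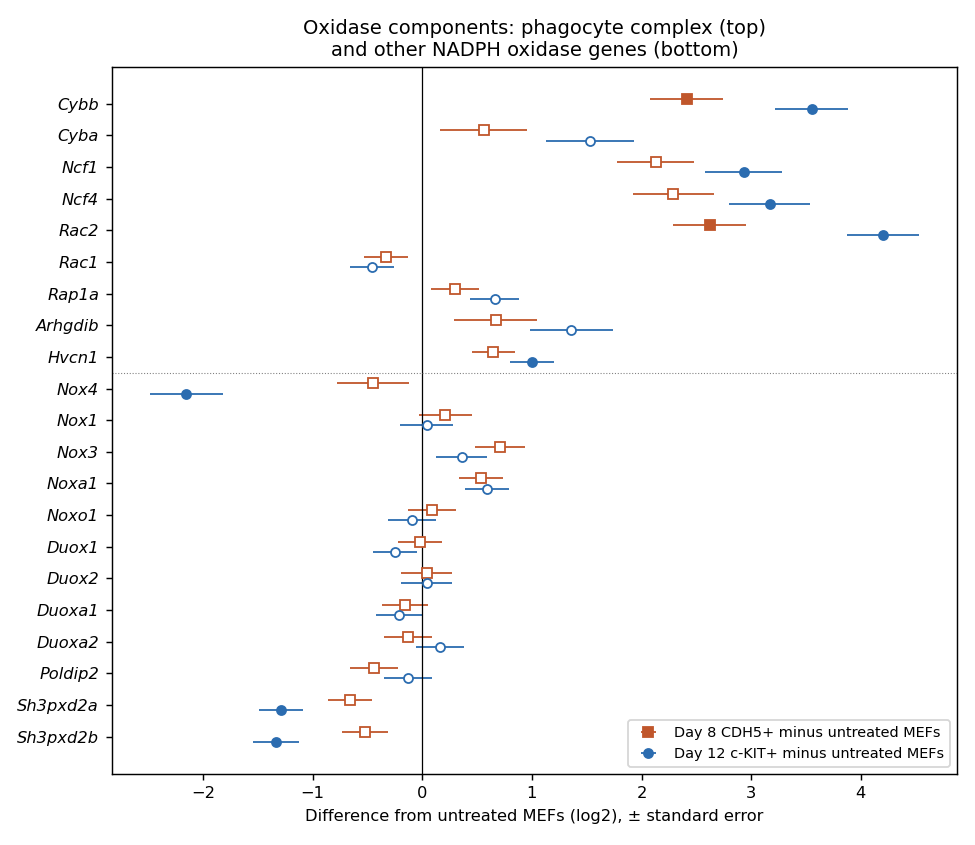
Difference from untreated MEFs in log2 intensity (horizontal axis, with the limma standard error) of genes of the phagocyte complex (above the dotted line) and of other NADPH oxidase genes (below it), for CDH5+ cells of day 8 (squares) and c-KIT+ cells of day 12 (circles). Filled symbols have a limma adjusted p under 0.05. The c-KIT+ symbols of Cybb, Ncf1, Ncf4, Rac2 and Hvcn1 are filled and to the right of 0, those of Nox4, Sh3pxd2a and Sh3pxd2b filled and to the left, and measured sizes are not comparable between genes where 1 group is not above background.

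Kinases, lipid enzymes and exchange factors that switch on the oxidase were read as a further list. In CDH5+ cells 0 of the 13 measured passed, beside 0.965% of all genes called higher and 0.213% lower. In c-KIT+ cells against untreated MEFs 7 were called higher and 0 lower, beside 3.24% and 2.72% of all genes. The median c-KIT+ difference was 1.30. Among the 7, Dock2 was not above background on any array, and Prkca and Pik3r5 had c-KIT+ differences of -0.27 and -0.04. Vav1, an exchange factor for RAC, rose by 3.09 (limma adjusted p = 0.00771) and Pik3cg by 2.95 (limma adjusted p = 0.0113). Prkcb, a protein kinase C that phosphorylates p47phox, rose by 2.20 (limma adjusted p = 0.0151), and Pik3cd, the lipid kinase subunit p110δ, by 1.79 (limma adjusted p = 0.00912). For Vav1, Pik3cg, Prkcb and Pik3cd no untreated array was above background, so the sizes of their rises are uncertain. Prkcd, another protein kinase C of the pathway, read between 7.55 and 7.96 on all arrays.

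Among 12 receptors that trigger the respiratory burst, 4 were called higher at the CDH5+ and 6 at the c-KIT+ stage. Of all genes 0.965% and 3.24% were called higher at these stages. At either stage 0 of the 12 were called lower, beside 0.213% and 2.72% of all genes. Of the 6, Fcgr4 was not above background on any array. Itgb2, the β2 integrin chain, went from 4.66 and 4.63 in untreated MEFs through 7.14 and 8.33 to 9.06 and 8.94, a c-KIT+ difference of 4.36 (limma adjusted p = 0.00481). The low affinity Fc receptor Fcgr3 was higher by 4.03 (limma adjusted p = 0.00224), its signalling chain Fcer1g by 3.87 (limma adjusted p = 0.00697) and Itgam, the αM integrin chain CD11b, by 3.37 (limma adjusted p = 0.0138). For Itgb2, Fcgr3, Fcer1g and Itgam no untreated array was above background, so the sizes of their rises are uncertain. By contrast the high affinity Fc receptor Fcgr1 read between 4.96 and 5.21 on all arrays, and the formyl peptide receptors Fpr1 and Fpr2 had c-KIT+ differences of 0.49 and 0.34 (limma adjusted p = 0.662 and 0.798).

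Of 7 transcription factors known to act on the Cybb promoter, 2 were higher in both sorted groups and 0 were lower. Of all genes 0.965% were called higher and 0.213% lower in CDH5+ cells, and 3.24% and 2.72% in c-KIT+ cells. Spi1, which encodes PU.1, rose by 2.70 in CDH5+ cells (limma adjusted p = 0.0132) and by 3.86 in c-KIT+ cells (limma adjusted p = 0.00212), and Cebpe, a factor of late granulocytes, by 3.76 and 5.05 (limma adjusted p = 0.00165 and 0.000467). For Spi1 and Cebpe no untreated array was above background, so the sizes of their rises are uncertain. Irf8, which acts on Cybb together with PU.1 in macrophages, stayed between 5.03 and 5.58, not above background on any array. Cebpa differed by 0.99 in c-KIT+ cells (limma adjusted p = 0.134).

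Enzymes that act on superoxide and peroxide and those that supply NADPH were read as further lists. Single calls in lists of this size were not read as a result about the enzymes. Of 22 detoxifying enzymes 1 was higher and 1 lower in c-KIT+ cells, beside 3.24% and 2.72% of all genes, with a median difference of -0.10. Gsr, glutathione reductase, an NADPH user, went from 7.72 and 8.06 through 8.38 and 9.03 to 9.60 and 9.62, a rise of 1.72 (limma adjusted p = 0.0277). Gpx7, a peroxidase of the endoplasmic reticulum, fell by 2.14 (limma adjusted p = 0.0371). Of 8 genes of NADPH supply 1 was called higher and 1 lower in c-KIT+ cells, beside the same 3.24% and 2.72% of all genes. G6pdx, the entry enzyme of the pentose phosphate pathway, rose by 0.99 (limma adjusted p = 0.0393), and Me1, malic enzyme, fell by 1.89 (limma adjusted p = 0.0259). Tkt and Taldo1, of the same pathway, had differences of 1.20 and 1.17 (limma adjusted p = 0.0585 and 0.0584). Of the 3 peroxidases that consume the oxidase product 2 were called higher in c-KIT+ cells, beside 3.24% of all genes, and 0 lower, beside 2.72%. Mpo of neutrophils rose by 6.91 and Epx of eosinophils by 5.67 (limma adjusted p = 0.000430 and 0.00697), while Lpo read between 4.17 and 5.05 on all arrays. For Mpo and Epx no untreated array was above background, so the sizes of their rises are uncertain.

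Markers of cells that carry the oxidase were set beside these levels. For comparison with the counts below, 0.965% of all genes were called higher in CDH5+ and 3.24% in c-KIT+ cells. Of 10 neutrophil lineage markers 9 were higher in both sorted groups, with a mean level over the list of 4.17 and 4.13 in untreated MEFs, 8.84 and 9.46 in CDH5+ cells and 10.08 and 10.10 in c-KIT+ cells, so that Ly6g, for example, rose by 7.41 in c-KIT+ cells (limma adjusted p = 0.00212). The exception was the receptor gene Csf3r, not above background on any array. Of 10 monocyte and macrophage markers 4 were higher in c-KIT+ cells, Lyz2, Ccr2, Cd68 and Adgre1, the last not above background on any array, and the mean level of the list was 5.54 and 5.18, then 6.16 and 6.15, then 6.31 and 6.32. Its defining receptor Csf1r read between 5.40 and 5.76, not above background on any array. Of 4 eosinophil markers measured 2 were higher in c-KIT+ cells, Prg2 by 7.04 (limma adjusted p = 0.00161), while Ccr3 and Il5ra were not above background on any array. Of 6 markers of B cells, another lineage with a low level of this oxidase, 0 passed in either group. Of 7 mast cell and basophil markers 3 were higher in CDH5+ and 4 in c-KIT+ cells, Mcpt8 by 7.30 in the latter (limma adjusted p = 0.000430). From the same list Tpsb2, Fcer1a and Ms4a2 were not above background on any array. Ptprc, which encodes CD45, stayed between 3.67 and 4.25 on all arrays, while 4 of the 5 pan-leukocyte markers rose in both groups. For Ly6g, Prg2 and Mcpt8 no untreated array was above background, so the sizes of their rises are uncertain. The part of each cell type in the oxidase levels was not tested.

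The pair of CDH5+ arrays differed in the levels of several oxidase genes. From replicate 1 to replicate 2 the level differed by 0.91 for Cybb, 0.98 for Ncf1, 1.04 for Ncf4 and 0.91 for Rac2, all higher on replicate 2, and by -0.11 for Cyba. Pan-leukocyte markers were higher on replicate 2 by a median of 0.61, neutrophil markers by 0.52 and endothelial markers by 1.17, whereas all 10 fibroblast markers were lower there, by a median of 2.39. Nox4 did not go with the fibroblast markers: it was 0.84 higher on replicate 2, at 6.38 against 5.54. Over all genes the median difference between these 2 arrays was -0.08. The c-KIT+ pair was closer, with differences between its arrays of 0.39 or less in size for each of the 5 genes. The sort marker Cdh5 read 5.26 and 5.01 in untreated MEFs, 10.16 and 10.95 after the CDH5+ sort and 7.20 and 7.49 after the c-KIT+ sort. The other sort marker, Kit, read 4.54 and 4.73, then 6.98 and 7.30, then 8.19 and 8.33, so each was highest where it had been selected. Since each array is 1 sample, what these differences come from was not tested.

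**Figure D4:**
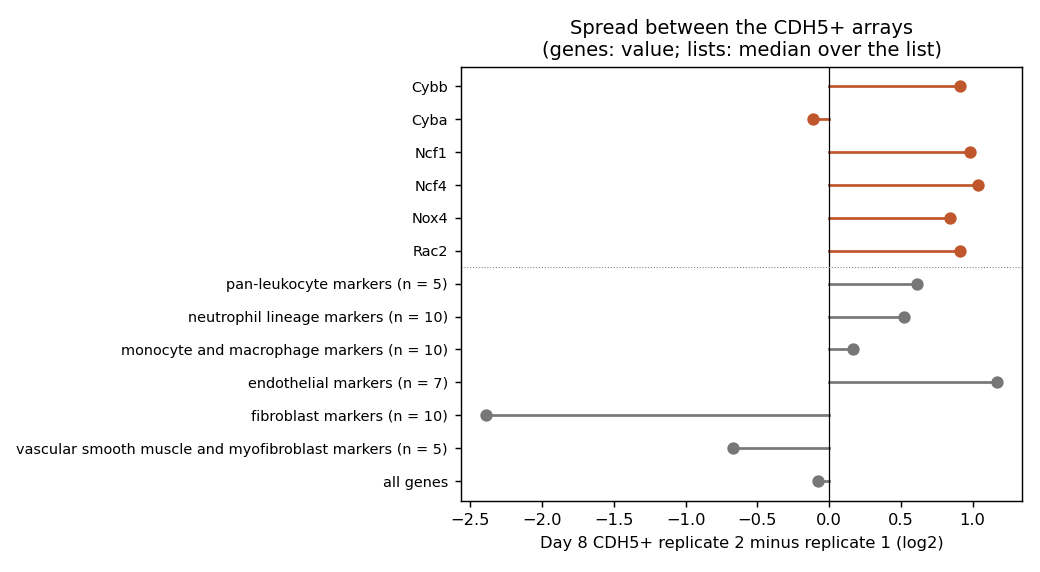
Difference between the 2 arrays of CDH5+ cells of day 8, replicate 2 minus replicate 1, in log2 intensity (horizontal axis), for 6 oxidase genes (above the dotted line, each gene's value) and for marker lists and all genes (below it, the median over the genes of the list). Nox4, at 0.84, lies on the same side as Ncf1 and Ncf4, and fibroblast markers, at -2.39, on the other.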

How the data were processed

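RNA of the 3 groups was profiled on 6 Mouse Exon 1.0 ST arrays, 2 per group. The values the authors deposited are normalized log2 intensities, for 26323 genes and for 1236087 probe sets, with replicates kept apart. For background correction, array scaling and genome build, the methods were not given in the sources used here. Gene values were found to be means of whole numbers of probe sets. The study's methods name limma, the 3 conditions and a 5% false discovery rate. Accordingly, all 6 arrays entered a fit per gene by limma (version 3.58.1, R version 4.3.3), with no filter or further scaling, by a moderated F-test and contrasts, adjusted by the Benjamini-Hochberg method at 0.05. The labels do not say which cultures the arrays came from, so p-values measure the spread between these arrays. The script was tested on simulated data. The members and lists were chosen with earlier results of these data known. Of 153 list entries 150 matched the file, 2 of them through older symbols (Adgre1 as Emr1, Siglecf as Siglec5), while Cybc1, Ear1 and Ear2 did not match. The text names all 5 members, the other oxidase genes, up to 4 members of each further list with the largest difference, genes of a list that read flat, and the 4 nearest genes by root mean square difference, except items that are not reported here. Flat genes, the other marker genes named and single probe sets were chosen after their values were seen. Of the probe sets 321091 have 1 gene symbol in the platform annotation, 7796 several and 907200 none listed, and those with 1 were used. Alternatives were other scalings, a filter on dim genes, a replicate block, other variance priors, each array left out, 2 groups per fit, 1 row per symbol and the median of probe sets.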

Additional observations from a re-analysis of the deposited data

How the results depend on the processing

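In c-KIT+ cells against untreated MEFs the directions of all 5 genes held under every alternative that gave a value, and the calls of Cybb, Ncf1, Ncf4 and Nox4 were lost only with an array left out. Leaving out genes dim over the 6 arrays removed Cybb and Nox4 themselves. The CDH5+ call of Cybb was lost with arrays centred on their medians (2.41, limma adjusted p = 0.0502), quantile normalization (2.44, 0.0645), the median of its probe sets (2.62, 0.0600), and only the 2 groups fitted (2.41, 0.127). The CDH5+ differences of Ncf1 (2.13, limma adjusted p = 0.0350) and Ncf4 (2.29, 0.0346) passed with dim genes left out, as did that of Ncf4 with the median of its probe sets (2.13, 0.0200). The filter on dim genes used the mean over all 6 arrays. Ncf1 and Ncf4 reached it only through the sorted groups, so their pass under it gives no support. For the F-test of Nox4 the limma adjusted p was 0.0529 after centring, 0.0678 after quantile normalization and 0.0526 with robust variance estimation. With only the 2 groups fitted, genes called between CDH5+ cells and untreated MEFs fell from 310 to 114.

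With 1 array left out at a time, the c-KIT+ difference from untreated MEFs ran from 3.43 to 3.68 for Cybb, 2.81 to 3.04 for Ncf1, 3.01 to 3.34 for Ncf4, 0.93 to 2.13 for Cyba and -2.35 to -1.96 for Nox4. The CDH5+ difference ran from 1.96 to 2.87 for Cybb, 1.64 to 2.62 for Ncf1, 1.77 to 2.81 for Ncf4, -0.87 to -0.04 for Nox4 and -0.0447 to 1.16 for Cyba, whose sign turned without untreated replicate 1. Between c-KIT+ and CDH5+ cells it ran from 0.69 to 1.59 for Cybb, 0.30 to 1.28 for Ncf1, 0.36 to 1.40 for Ncf4, 0.92 to 1.03 for Cyba and -2.12 to -1.28 for Nox4. The limma adjusted p of the F-test ran from 0.0162 to 0.118 for Cybb, 0.0196 to 0.172 for Ncf1, 0.0194 to 0.163 for Ncf4, 0.0272 to 0.529 for Cyba and 0.0386 to 0.312 for Nox4. Genes called ran from 148 to 3025 (1570 with all arrays) for c-KIT+ and 67 to 339 for CDH5+ cells against untreated MEFs, and from 86 to 1519 (868 with all) for the F-test. The fewest came without c-KIT+ replicate 1, CDH5+ replicate 2 and c-KIT+ replicate 2, and the most without untreated replicate 2 in each case. With 1 array left in a group, that array is assumed to vary like the other groups.

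The replicate numbers were not taken to pair the arrays, since the study's methods name no pairing. Over all genes, deviations of same-numbered arrays correlated at 0.12 for untreated MEFs with CDH5+ cells. The values were -0.015 for untreated MEFs with c-KIT+ cells and -0.046 for CDH5+ with c-KIT+ cells. Such a correlation cannot show that arrays are unpaired. All 10 fibroblast markers were lower on replicate 2 in untreated MEFs and in CDH5+ cells (medians -0.68 and -2.39), while 7 were higher on it in c-KIT+ cells. With the replicate number as a block the CDH5+ difference of Cybb was 2.41 (limma adjusted p = 0.0801), the adjusted p of the F-test for Nox4 was 0.0603, and genes called fell from 310 to 198 for CDH5+ cells against untreated MEFs and from 868 to 481 for the F-test. The causes of these changes were not tested.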
